A study of Mus musculus with 2 samples.

Results

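The genes described here carry a cell through mitosis and cytokinesis, the steps in which duplicated chromosomes are condensed, attached to the spindle, pulled apart and enclosed in separate daughter cells. The set holds 40 named mouse genes of G2 and M phase, the spindle, the kinetochore and cytokinesis. Its members were found by taking every probe set that is not a control and whose platform annotation names exactly 1 gene, where that gene is on the list. This gave 84 probe sets for 39 genes, out of 34945 probe sets for 18193 genes on the array. Ccnb1, which encodes cyclin B1, had no such probe set and has no value here, and 1 probe set that names a member beside other genes was left out.

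RNA came from 2 cultures of unsorted mouse bone marrow, 1 from wildtype mice and 1 from Cpdm mice, and each was hybridised to 1 Affymetrix array. Cpdm is a spontaneous mouse mutant with chronic proliferative dermatitis whose Sharpin gene makes no functional protein; SHARPIN belongs to the complex that assembles linear ubiquitin chains. Both cultures spent 10 days with ascorbic acid (50 μg/ml) and β-glycerophosphate (10 mM), which favour bone-forming osteoblasts, and had no other treatment. How many mice were used, their age and their sex is not stated in the sources used here. Neither genotype was replicated, so no difference below has an error over cultures, a test or a p-value, and each describes these arrays alone.

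Mitotic genes are transcribed in waves. In resting cells a repressor complex of pocket proteins, E2F4 and the MuvB core keeps them silent, and in G2 the MuvB core joins B-MYB and FOXM1 to switch them on. Many of their transcripts and proteins are cleared as cells leave mitosis, so their level in a mixed culture is widely used as a readout of how many cells divide. In cultured bone marrow, dividing cells can include stromal and osteoblast precursors as well as macrophages and their precursors.

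Short DNA elements are known in the promoters of such genes, the CCAAT box bound by NF-Y and the cell cycle homology region bound by the MuvB core. Promoters are shown because most members had the same direction of difference, as described below. They are the 250 bases before the RefSeq transcript start (GRCm38.p6), read 5′ to 3′ along the gene, of the 5 members at least 2-fold higher in the Cpdm array that matched the RefSeq table, of Top2a and Cdk1, which hold several matches, and of Plk1, whose signals were near equal. Capitals mark the letters of either element on either strand, CCAAT for the CCAAT box and TTTGAA or TTCGAA for the cell cycle homology region.
Mki67 (chr7:135716380-135716629, minus strand): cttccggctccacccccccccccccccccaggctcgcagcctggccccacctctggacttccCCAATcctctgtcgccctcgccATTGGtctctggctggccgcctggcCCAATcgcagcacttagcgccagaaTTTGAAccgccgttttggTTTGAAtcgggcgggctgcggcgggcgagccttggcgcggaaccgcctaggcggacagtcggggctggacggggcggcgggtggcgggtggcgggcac
Cenpa (chr5:30666636-30666885, plus strand): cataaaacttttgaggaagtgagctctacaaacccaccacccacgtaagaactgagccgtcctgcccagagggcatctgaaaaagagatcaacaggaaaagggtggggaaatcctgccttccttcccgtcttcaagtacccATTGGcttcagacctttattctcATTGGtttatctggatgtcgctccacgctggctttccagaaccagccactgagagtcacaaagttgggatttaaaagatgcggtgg
Cenpe (chr3:135212313-135212562, plus strand): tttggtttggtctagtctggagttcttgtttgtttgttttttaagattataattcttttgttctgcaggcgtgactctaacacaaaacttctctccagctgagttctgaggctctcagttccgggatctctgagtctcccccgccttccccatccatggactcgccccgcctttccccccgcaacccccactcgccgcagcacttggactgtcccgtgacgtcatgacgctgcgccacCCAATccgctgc
Kif23 (chr9:61946800-61947049, minus strand): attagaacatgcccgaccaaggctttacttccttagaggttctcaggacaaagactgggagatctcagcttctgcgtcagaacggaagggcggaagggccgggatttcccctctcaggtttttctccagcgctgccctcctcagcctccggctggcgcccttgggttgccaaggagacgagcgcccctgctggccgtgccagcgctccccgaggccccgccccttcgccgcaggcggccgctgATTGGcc
Nusap1 (chr2:119618048-119618297, plus strand): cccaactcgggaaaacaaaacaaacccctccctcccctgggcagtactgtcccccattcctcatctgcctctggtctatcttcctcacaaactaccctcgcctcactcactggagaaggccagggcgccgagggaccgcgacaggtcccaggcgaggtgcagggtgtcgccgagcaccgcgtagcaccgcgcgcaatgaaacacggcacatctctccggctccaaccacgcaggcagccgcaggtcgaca
Top2a (chr11:99024190-99024439, minus strand): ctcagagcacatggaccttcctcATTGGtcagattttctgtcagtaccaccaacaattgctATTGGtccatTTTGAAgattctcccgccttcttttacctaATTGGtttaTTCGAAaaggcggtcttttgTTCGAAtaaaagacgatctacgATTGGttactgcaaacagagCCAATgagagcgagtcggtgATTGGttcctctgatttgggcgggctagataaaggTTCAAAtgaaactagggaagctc
Cdk1 (chr10:69352913-69353162, minus strand): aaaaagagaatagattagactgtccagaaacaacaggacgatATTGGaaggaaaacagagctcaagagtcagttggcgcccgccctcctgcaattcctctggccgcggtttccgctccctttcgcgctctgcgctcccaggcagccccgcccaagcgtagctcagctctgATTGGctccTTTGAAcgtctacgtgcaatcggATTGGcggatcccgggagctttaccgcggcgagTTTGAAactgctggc
Plk1 (chr7:122159185-122159434, plus strand): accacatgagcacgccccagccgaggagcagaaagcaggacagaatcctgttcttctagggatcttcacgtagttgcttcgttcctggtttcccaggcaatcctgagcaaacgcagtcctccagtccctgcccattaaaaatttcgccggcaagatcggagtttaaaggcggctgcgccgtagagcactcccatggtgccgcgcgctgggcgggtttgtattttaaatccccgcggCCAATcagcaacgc

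In Mki67, the capitals mark 2 matches of the cell cycle homology region and 3 of the CCAAT box. Cenpa holds 2 matches of the CCAAT box, Cenpe, Kif23 and Plk1 hold 1 each, and Nusap1 holds neither motif in this window. Top2a holds 4 and 6 matches of the cell cycle homology region and the CCAAT box, and Cdk1 holds 2 and 3. Of the 40 members, 34 matched the promoter table, with 38 promoters in all, since Cenpk, Ect2 and Prc1 have several that can overlap. The unmatched members are Cdc25c, Foxm1, Aurkb, Incenp, Tpx2 and Kif20a. The letters of the CCAAT box stood in 29 of the 38 member promoters (76.3%), against 34.3% of the 14373 promoters of all measured genes and 33.8% of all 32851 promoters in the table. Those of the cell cycle homology region stood in 12 (31.6%), against 12.5% of the promoters of measured genes and 17.1% of all promoters. Both elements were found in 11 member promoters (28.9%), against 4.36% of the promoters of measured genes. No match of one element shared a base with a match of the other in these promoters. Such letter matches are a description of the sequence and do not show binding.

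**Figure D1:**
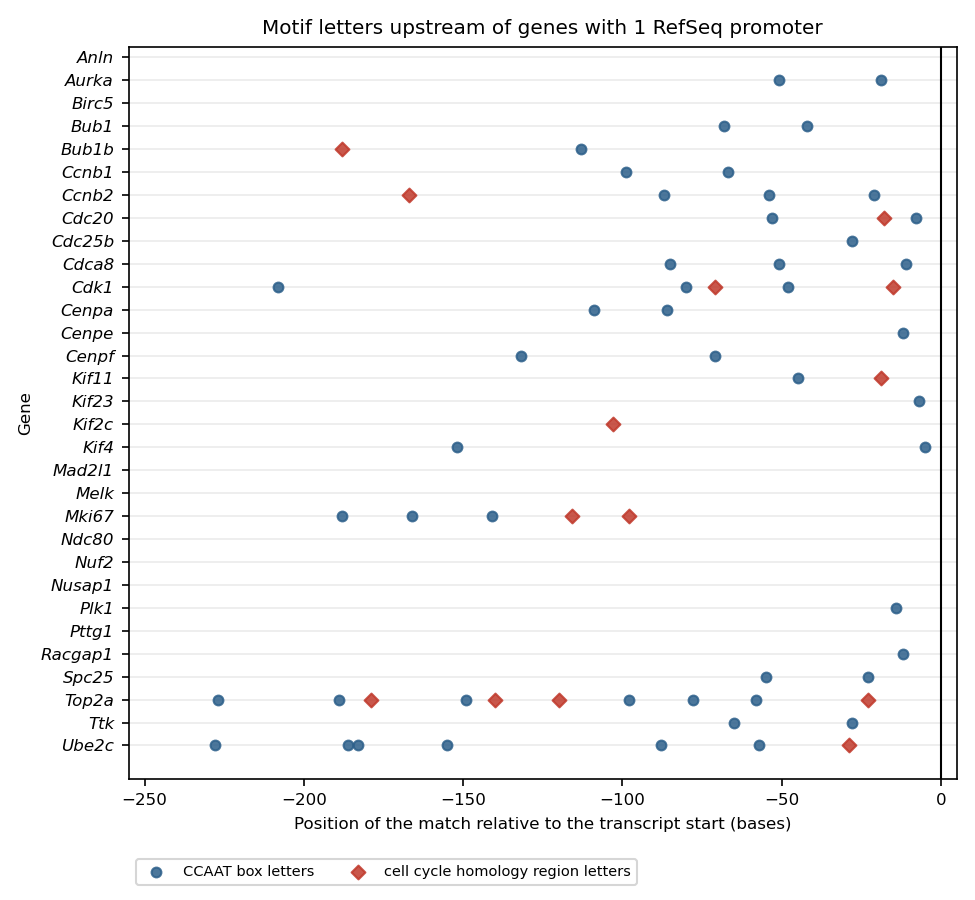
Positions of motif letters in the 250 bases before the transcript start for the 31 members with a single RefSeq promoter; the horizontal axis is the distance from the start in bases, circles are CCAAT box letters and diamonds are cell cycle homology region letters, on either strand. Of 49 CCAAT box matches 34 lie within 100 bases of the start, and of 14 matches of the cell cycle homology region 7 do.

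Position varied among members. The CCAAT box matches had a median position 68 bases before the start (-68) and lay between -228 and -5, as the plot of motif positions shows. Among measured members with a promoter, 4 of the 5 past 2-fold and 20 of the other 26 held the CCAAT box letters, while 1 of 5 and 10 of 26 held those of the cell cycle homology region.

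Most mitosis and cytokinesis genes had a somewhat higher signal in the Cpdm culture than in the wildtype culture, and few differed by a large factor. Signals are linear MAS5 intensities in arbitrary units. A floor was set at the 40th percentile of each array, 18.5 in Cpdm and 18.7 in wildtype, and lower signals were raised to it; a gene counts as measured if its probe set reached the floor in at least 1 array. Of the 39 members, 31 reached it in both arrays, 6 in a single array, and 2, Melk and Ndc80, in neither. At least 2-fold higher in the Cpdm array were 6 members, namely Mki67, Cenpa, Incenp, Kif23, Nusap1 and Cenpe, against a background of 5.84% of the 14055 measured genes. None was at least 2-fold lower by the probe set that represents it, where 5.98% of all measured genes were. Cenpe was measured through the Cpdm array alone, its wildtype signal being below the floor, so 5 of the 31 members above the floor in both arrays passed 2-fold. The background of 5.84% includes 1660 genes measured in a single array. By probe set, 5.07% of the 20969 that reached the floor in both arrays were at least 2-fold higher in Cpdm.

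A smaller difference in the same direction was more common. At 1.5-fold, 18 of the 37 measured members were higher, against 15.7% of all measured genes, and 1, Tpx2, was lower, against 13.5%. Of the 18, Bub1, Cenpe and Kif20a were below the floor in wildtype and so could only come out higher. The background also holds genes measured in a single array. Among the 31 members above the floor in both arrays, 27 had a log2 ratio of Cpdm over wildtype above 0 (87.1%), compared with 53.0% of the 12395 genes measured in both. Their median log2 ratio was 0.58, or 1.49-fold, and that of all measured genes was 0.03. Over all 37 measured members, 32 lay above 0 (86.5%), against 52.4% of all measured genes. Signals taken without the floor put 34 of all 39 members above 0 with a median of 0.64, and 51.7% of all genes above 0. In these bulk samples a larger share of dividing cells and more of these transcripts per cell cannot be told apart.

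The scale of technical disagreement was taken from other probe sets. The disagreement between different probe sets of 1 gene, over 5250 genes, gave a robust SD of 0.32 log2 units for a single probe set. The difference between 2 probe sets of a gene spreads wider than this SD. The 18 spike-in controls spanned -0.22 to 0.20. Of the 31 members, 13 were higher by more than 2 SD of a single probe set (0.65 log2 units) and 1 was lower by more, while 17 lay inside. Among all genes measured in both arrays, 13.7% were higher and 10.7% lower by more than that. For 17 of the 31 members the individual difference is thus within 2 SD of a single probe set. Probe sets of the same gene can differ by more than that. Neither yardstick covers differences between mice or cultures.

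**Figure D2:**
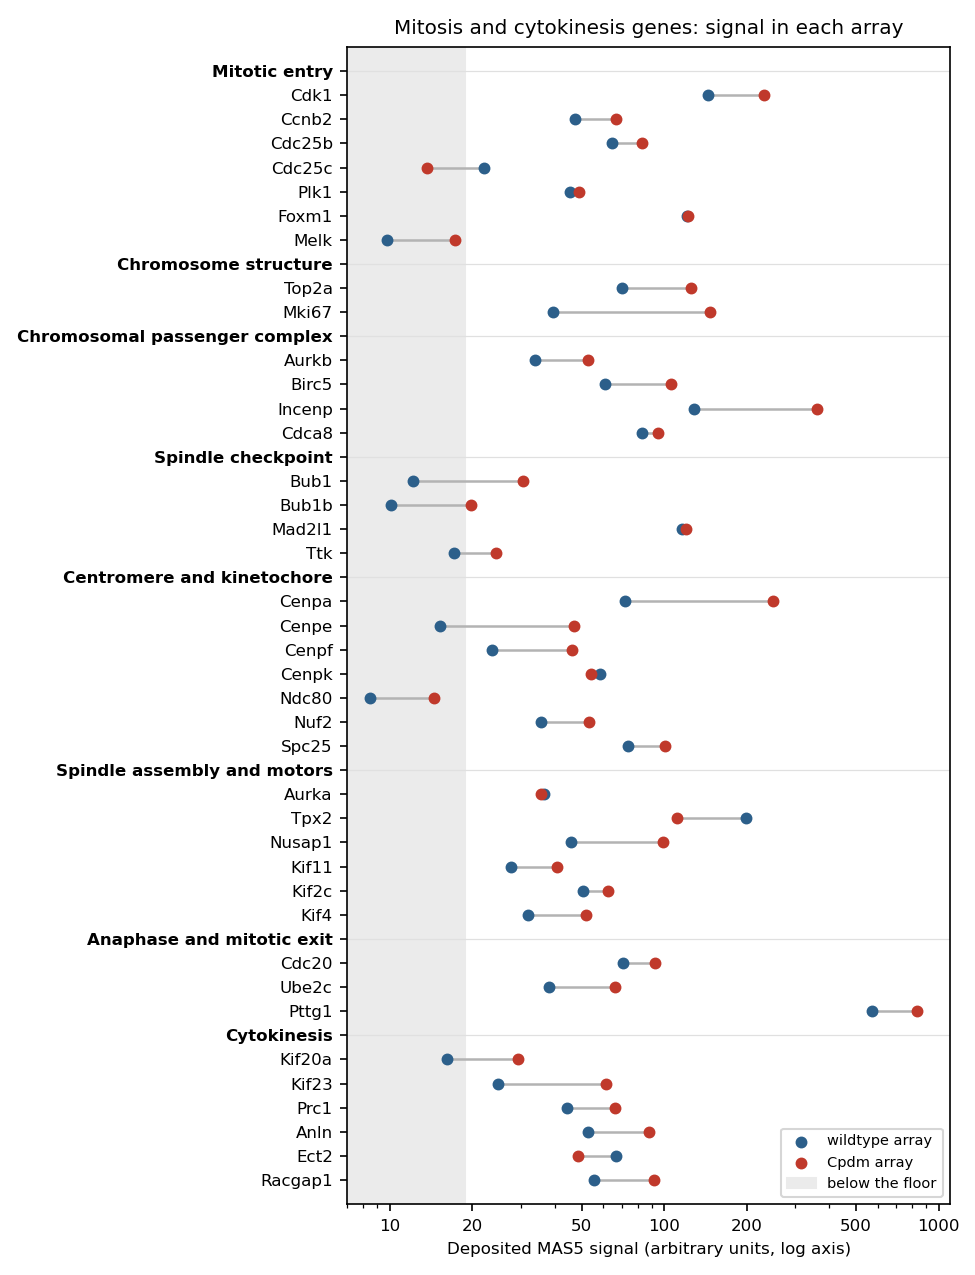
Deposited MAS5 signal (log axis, arbitrary units) of the representative probe set of each of the 39 members in the wildtype array (blue) and the Cpdm array (red), grouped by role; grey marks signals below the floor of 18.7. Points are single arrays without error bars, and the red point lies right of the blue one for 34 of the 39 members.

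The measured genes that commit a cell to mitosis ran from near equal to 1.61-fold higher, apart from the dim Cdc25c. Cdk1, the kinase that drives entry into mitosis, had a Cpdm signal of 232 and a wildtype signal of 144, 1.61-fold higher; every pair of signals below is in this order. Ccnb2, which encodes its partner cyclin B2, read 67.0 against 47.4, 1.41-fold higher. Cdc25b, a phosphatase that activates CDK1, read 83.0 against 64.7, 1.28-fold higher. Its relative Cdc25c was dim, at 13.7 against 21.95, and at least 1.19-fold lower with the Cpdm signal below the floor. Plk1, the polo-like kinase of mitotic entry and exit, was near equal at 48.7 against 45.5. Foxm1, the transcription factor that activates many of the other members, was also near equal at 122 in each array, and its second probe set read 31.9 against 39.7. Melk, a kinase gene induced in dividing cells, stayed below the floor at 17.2 against 9.78. None of the 6 measured genes of mitotic entry passed 2-fold, and their median log2 ratio was 0.23.

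Chromosome proteins gave the member with the largest ratio. Mki67, which encodes the Ki-67 protein that coats mitotic chromosomes and is the usual marker of dividing cells, read 146 against 39.3 and was 3.73-fold higher in Cpdm, by its single probe set. Top2a, the topoisomerase that untangles sister chromatids, read 125 against 70.2, 1.79-fold higher. A dimmer Top2a probe set close to the floor went the other way, at 19.5 against 29.0. The mean over both Top2a probe sets was a log2 ratio of 0.13.

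The chromosomal passenger complex, which corrects faulty chromosome attachments and later guides cytokinesis, had all 4 members above 0. Incenp, its scaffold, read 361 against 128, 2.82-fold higher, by a probe set of a kind that can bind related transcripts. The same limit holds for the probe sets that represent Aurkb, Cdca8, Cdc25c, Cdc20, Pttg1 and Prc1. A second Incenp probe set without that limit read 193 against 89.2, 2.16-fold higher. Another was above the floor in wildtype only, at 13.6 against 29.5, and went the other way. The mean over its measured probe sets was a log2 ratio of 0.64, below 2-fold. Birc5, which encodes survivin, read 106 against 60.6, 1.75-fold higher. Aurkb, the kinase of the complex, read 52.8 against 33.9, 1.56-fold higher, and its other probe set gave 24.1 against 19.1. Cdca8, which encodes borealin, was near equal by its brightest probe set, at 95.2 against 82.9, but the other probe sets were higher in Cpdm, at 47.2 against 10.6 and 27.7 against 18.7. For both of these the wildtype signal was below the floor, and the first was at least 2.52-fold higher. The median log2 ratio of the 4 genes was 0.72.

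Spindle checkpoint genes, whose products delay anaphase until every kinetochore is attached, were mostly too dim to size. Bub1, a checkpoint kinase, read 30.5 against 12.1, at least 1.63-fold higher. Bub1b, which encodes the inhibitor BUBR1, read 19.8 against 10.1, at least 1.06-fold higher. Ttk, the MPS1 kinase that starts the checkpoint signal, read 24.4 against 17.1, at least 1.30-fold higher. All 3 were below the floor in wildtype, so these folds are lower bounds. Mad2l1, which encodes the checkpoint protein MAD2 and was the only one of the 4 above the floor in both arrays, was near equal at 119.9 against 116.

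Centromere and kinetochore genes ran from near equal to more than 3-fold higher. Cenpa, the histone H3 variant that marks the centromere, read 249.9 against 72.1, 3.47-fold higher, and its other probe sets were below the floor in both arrays. Cenpe, a motor that moves chromosomes to the spindle equator, read 46.9 against 15.3, at least 2.51-fold higher. A floor at the 60th percentile left a log2 ratio of at least 0.12, and the other Cenpe probe set was below the floor in both arrays. Cenpf, a large kinetochore protein of G2 and M phase, read 46.0 against 23.6, 1.95-fold higher, while its second probe set read 27.4 against 31.0. The members of the NDC80 complex, which grips microtubules, differed less. Nuf2 read 53.2 against 35.4, a log2 ratio of 0.59, and Spc25 read 100.3 against 74.0, 1.35-fold higher. Ndc80 itself was below the floor at 14.4 against 8.46. Cenpk, of the inner kinetochore, was near equal at 54.0 against 58.6. Of 6 measured genes in this group, 2 passed 2-fold, against 5.84% of all measured genes, and the median log2 ratio was 0.78. Both values include Cenpe, which was below the floor in wildtype. Over the 5 genes above the floor in both arrays the median was 0.59.

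Genes of spindle assembly went both ways. Nusap1, which stabilises microtubules near chromosomes, read 99.2 against 45.9, 2.16-fold higher, and its second probe set was just below the floor in Cpdm, at 18.3 against 10.4. Kif4, a chromosome-bound motor gene, read 51.8 against 32.0, 1.62-fold higher. Kif11, the motor that pushes spindle poles apart, read 40.7 against 27.6, 1.47-fold higher. Kif2c, a microtubule depolymerase, read 62.1 against 50.8, 1.22-fold higher, and its 3 other probe sets gave log2 ratios of 0.86, 0.23 and -0.56. Aurka, the kinase of the spindle poles, was near equal at 35.6 against 36.5. Tpx2, the protein that activates Aurora A on the spindle, stood apart from its neighbours. Its brightest probe set read 111 against 198, 1.79-fold lower in Cpdm, and the next read 87.6 against 188, 2.14-fold lower. The remaining Tpx2 probe sets read 62.1 against 32.2, 1.93-fold higher, and 24.5 against 22.7. The direction of Tpx2 therefore depends on the probe set, and where each lies on the transcript was not analysed here.

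Anaphase and mitotic exit genes were 1.31-fold to 1.74-fold higher by the probe sets that represent them. Ube2c, the ubiquitin-conjugating enzyme of the anaphase-promoting complex, read 66.1 against 37.9, 1.74-fold higher. Pttg1, which encodes securin, the guard of separase, read 831 against 569.9, 1.46-fold higher, and 311 against 204, 1.53-fold higher, by a second probe set, while another was near equal at 47.0 against 51.7. Cdc20, the activator of the anaphase-promoting complex, read 92.4 against 70.6, 1.31-fold higher, and 83.7 against 75.8 by another probe set.

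Cytokinesis genes were higher with 1 exception. Kif23, the motor subunit of centralspindlin, which bundles microtubules at the cell equator, read 61.4 against 24.8, 2.47-fold higher. A floor at the 60th percentile left a log2 ratio of at least 0.51, and the other Kif23 probe sets were below the floor in both arrays. Racgap1, its partner subunit, read 91.9 against 55.6, 1.65-fold higher, and 29.1 against 21.0 by another probe set. Anln, which encodes anillin of the contractile ring, read 88.1 against 52.6, 1.67-fold higher. Prc1, a microtubule bundler of the midzone, read 66.0 against 44.2, 1.49-fold higher, and its other probe set agreed closely at 38.1 against 25.7. Kif20a, a midzone motor gene, read 29.2 against 16.2, at least 1.56-fold higher. Ect2, an exchange factor that starts furrowing at the cell equator, was the exception at 48.4 against 66.5, 1.38-fold lower, by its single probe set. The median log2 ratio of the 6 genes was 0.68.

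**Figure D3:**
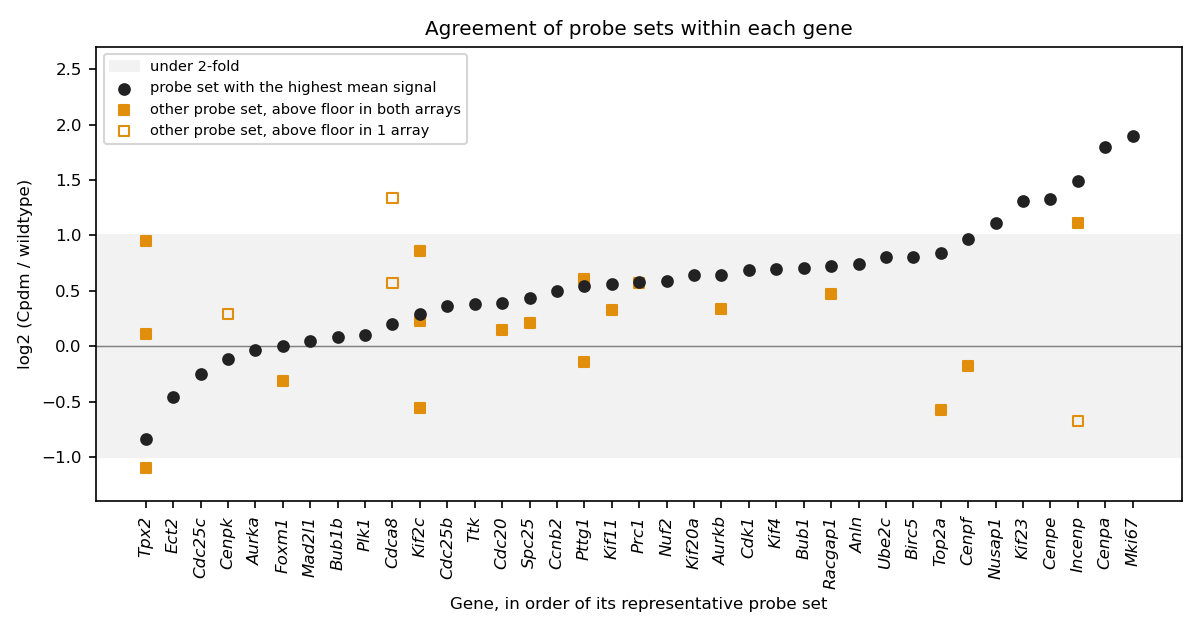
log2 ratio of Cpdm over wildtype for each probe set of the 37 measured members (vertical axis), with genes in order of the representative probe set (black circles); filled squares are further probe sets at or over the floor on each array, open squares those reaching it on 1 array, and the grey band is under 2-fold. The circles of Cdc25c, Bub1, Bub1b, Ttk, Cenpe and Kif20a are bounds, with 1 array below the floor. Tpx2 spans -1.10 to 0.95, and only Incenp has more than 1 filled symbol above the band.

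Agreement of probe sets within a gene was uneven. Of the 84 probe sets, 49 reached the floor on each array, and 39 of these were higher in Cpdm (79.6%), compared with 51.2% of the 20969 such probe sets of all genes. By probe set, 6 were at least 2-fold higher, against 5.07% of all such probe sets, and 1, of Tpx2, was at least 2-fold lower, against 5.66%. Several such probe sets were available for 13 members, and all of them went the same way in 7, namely Incenp, Aurkb, Racgap1, Prc1, Kif11, Spc25 and Cdc20. In each of these 7 the shared direction was higher in Cpdm. Probe sets disagreed in sign for Tpx2, Kif2c, Top2a, Cenpf, Pttg1 and Foxm1. Over all genes with several such probe sets, the share with a single sign was 58.1%, against 53.8% of these 13 members. Brighter and dimmer members had similar ratios, with a median log2 ratio of 0.62 for the 16 brighter and 0.58 for the 15 dimmer ones among those measured in both arrays.

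Other genes of the same processes, taken from a list of genes that are no members, lay between the members and the whole array. Of 75 measured, 13 of them in a single array, 7 passed 2-fold towards Cpdm and none towards wildtype, against 5.84% and 5.98% of all measured genes. Among these 7, Kif20b and Sgo2a were below the floor in wildtype and so could only come out higher. Above 0 were 59 (78.7%), against 52.4% of all measured genes, and the median log2 ratio was 0.28. Arhgap11a read 189.7 against 68.3, 2.78-fold higher. Ncapg2, a condensin II subunit, read 555 against 202, 2.74-fold higher. Cep55, which organises the final cut between daughter cells, read 65.7 against 26.7, 2.46-fold higher, and Shcbp1 read 41.9 against 20.4, 2.06-fold higher. Ccna2, which encodes cyclin A2 of S and G2 phase, was near equal at 116 against 125.

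Genes of the preceding steps, G1/S and DNA replication, gave a similar small median. Of 47 measured, 1 passed 2-fold in each direction, against 5.84% higher and 5.98% lower of all measured genes. Above 0 were 37 (78.7%), against 52.4% of all measured genes, and the median log2 ratio was 0.29. The replication fork gene Gins2 read 155 against 72.5, 2.14-fold higher, and the thymidine kinase gene Tk1 read 116 against 64.3, 1.80-fold higher. Pola2, of the DNA polymerase alpha complex, was 1.90-fold higher at 67.8 against 35.7, and another of its probe sets, above the floor in wildtype only, went the other way. Timeless, a fork protection gene, was at least 2.30-fold lower, at 17.0 against 42.5. Pcna, the sliding clamp, read 1544 against 1200.04, 1.29-fold higher.

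**Figure D4:**
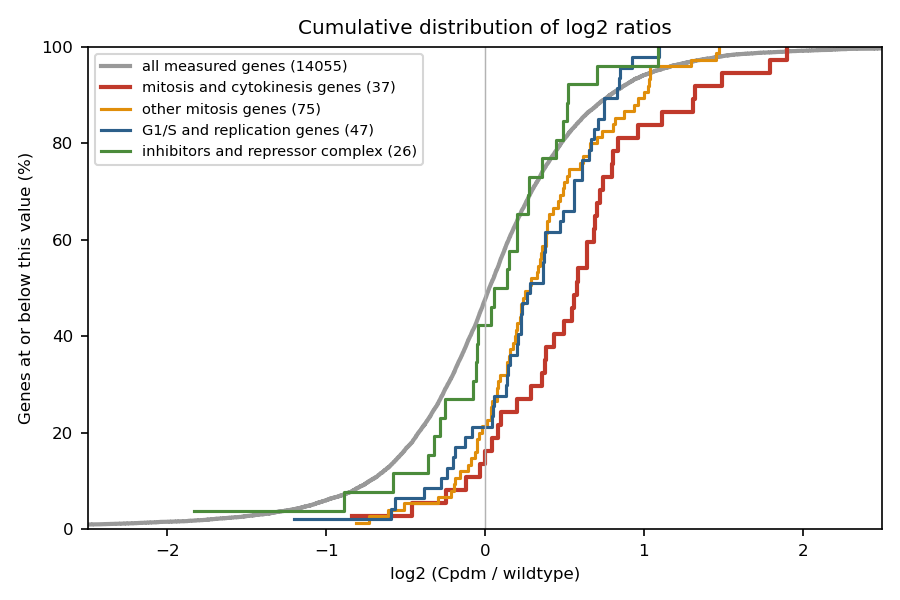
Cumulative share of genes (vertical axis, percent) at or below each log2 ratio of Cpdm over wildtype (horizontal axis), with the number of measured genes in brackets. The red curve of the 37 members lies right of the grey curve of all 14055 genes, with medians of 0.58 and 0.03, and the curves of other mitosis genes and of G1/S genes lie between, with medians of 0.28 and 0.29.

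Cell cycle inhibitors and the repressor complex showed no common direction. Of 26 measured genes, 15 lay above 0 (57.7%), against 52.4% of all measured genes, and the median log2 ratio was 0.10. Cdkn1c, the CDK inhibitor p57, read 16.1 against 65.7 and was at least 3.55-fold lower in Cpdm. Cdkn2b, the CDK4 and CDK6 inhibitor p15, read 732 against 343, 2.13-fold higher, whereas its neighbour Cdkn2a was 1.85-fold lower at 231 against 428. Btg2, an antiproliferative gene, read 330 against 203, 1.63-fold higher, and 79.7 against 75.2 at its second probe set. Cdkn1a, the p53 target p21, read 1870.1 against 2273. Subunits that repress or activate the members went both ways, and none of them passed 2-fold. The pocket protein genes Rb1, Rbl1 and Rbl2 had log2 ratios of -0.05, -0.08 and 0.49. The repressor E2F genes E2f4 and E2f5 had ratios of -0.36 and 0.53, and their partner Tfdp1 one of -0.04. The MuvB core genes Lin9, Lin37, Lin52, Lin54 and Rbbp4 lay between -0.06 and 0.28, and Mybl2, which encodes B-MYB, was at -0.32.

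Markers of the cells that an unsorted marrow culture can hold differed between the same arrays. Of 23 macrophage and monocyte markers, all measured, 7 passed 2-fold towards Cpdm and none towards wildtype, against 5.84% and 5.98% of all measured genes. Their median log2 ratio was 0.46 and the summed signal 48165 against 36756. Above 0 were 21 of the 23 (91.3%), against 52.4% of all measured genes, while Lyz1 and Lyz2 were lower, Lyz2 by 1.32-fold. The bright marker Cd68 was 1.21-fold higher. The largest differences were in Marco, at least 8.64-fold with the wildtype signal below the floor, and Cx3cr1, 5.53-fold higher. Dimmer probe sets of these genes, below the floor in wildtype, gave at least 2.12-fold and at least 1.46-fold higher. Of 10 osteoblast markers, 9 were at least 2-fold lower, with a summed signal of 5108 against 17304 and with Phex at least 44.7-fold and Pth1r 17.9-fold lower. The part of either cell type in the difference of the mitosis genes was not tested. Some markers of blood precursors reached the floor. Measured in at least 1 array were 8 of 13 neutrophil and precursor genes, 4 of 8 erythroid genes and 6 of 8 stem and progenitor genes. Over the whole array 14055 of 18193 genes were, a larger share, so these counts do not show that such cells were present. The granule gene Mpo, the erythroid factor gene Klf1 and the progenitor genes Kit, Flt3 and Cd34 reached the floor in each array. Kit was close to it in Cpdm, at 20.4. The granule genes Elane, Prtn3 and Ctsg, the erythroid genes Hba-a1 and Alas2 and the progenitor factor gene Myb stayed below the floor in each.

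Summed signals of the remaining marker lists were 418 against 416 over 13 neutrophil genes, 263 against 258 over 8 erythroid genes, 465 against 356 over 13 lymphoid genes and 233 against 268 over 8 stem and progenitor genes. The Cpdm excess of the lymphoid sum came mainly from Cd4, at 147 against 18.4. The median log2 ratios of the measured members were -0.38, 0.05, -0.25 and -0.08. The largest differences were Ltf at least 2.06-fold lower, Csf3r 1.76-fold higher, Rhd 1.19-fold lower, Epor 1.08-fold higher, Cd4 at least 7.83-fold higher, Thy1 1.85-fold higher, Kit 2.39-fold lower and Flt3 1.22-fold lower. For Cd4 and Kit the other probe set was below the floor in both arrays.

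Features of the array pair as a whole run alongside genotype. The 3 control probe sets for 18S RNA had log2 ratios between -3.75 and -2.37. Sharpin was detected in both arrays and read 162 against 197, which does not check the labels because the mutation need not remove the transcript. Y-linked Eif2s3y and Uty had log2 ratios of -1.63 and -1.92, and the female-specific Xist had one of 2.17. The part of these differences in the mitosis genes was not tested.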

How the data were processed

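RNA was labelled by the Affymetrix in vitro transcription protocol from 5 μg total RNA per culture, per the labels' protocols. Each value is a linear signal intensity per probe set and array, as deposited by the authors. Per the submitters' processing notes these come from GCOS 1.4 with MAS5; background settings are not stated there. The trimmed mean (2% off either end) was 100.001 on each array, as after scaling to 1 target. No detection call or error per value was used here.

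Signals were used as deposited (Python 3.11.15, numpy 2.4.6, pandas 2.3.3). Signals under each array's 40th percentile were raised to it. A gene took its brightest probe set by mean log2 signal after the floor, and a fold with 1 array at the floor is a lower bound. Calls are a size rule of 2-fold, without a test. The procedure was run on simulated data with changes planted only in bright genes and with noise smaller than the disagreement between probe sets. All members but Pttg1 are dimmer than those genes, so that run does not cover calls at their signal levels. Signal levels were not compared between different genes, except to split members into brighter and dimmer ones. Summed signals of the marker lists weigh the brightest genes most. The number of arrays limits the precision. All 40 members are named, together with the 4 largest differences of each other cell cycle list and 2 of each marker list. Ccna2, Pcna, Cdkn1a, Kif20b, Sgo2a, Cd68, Lyz1, Lyz2, and the repressor and B-MYB subunits were chosen after their values were seen. So were the precursor markers named for detection. The members and lists were chosen with earlier results of these data known. Floors, scalings, choice of probe set and fold rule were varied. Promoters are from RefSeq (GRCm38.p6), while the table names no genome build.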

Additional observations from a re-analysis of the deposited data

How the results depend on the processing

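The members' median log2 ratio lay between 0.41 and 0.64 under every floor, scaling and choice of probe set tried. The number at least 2-fold higher lay between 4 and 7, with none at least 2-fold lower. At 1.5-fold 18 members were higher, with Bub1, Cenpe and Kif20a among them below the floor in wildtype, and 1 was lower. Of the 6 named, Mki67 and Nusap1 passed 2-fold under every floor, scaling and choice of probe set tried. Incenp lost the call with the mean over probe sets, Cenpe and Kif23 with the floor at the 60th percentile, and Cenpa was not measured without its _a_at probe set. Over all genes, 1741 were higher and 1885 lower without a floor, 1265 and 1397 with the floor at the 20th percentile, and 2210 and 1895 at 1.5-fold. Role groups are small and moved more. The spindle checkpoint median was 0.74 without a floor and with the 20th percentile, and 0.04 with the 60th, where 1 gene remained measured. The centromere and kinetochore median was 0.21 with the 60th percentile. The chromosome structure median was 1.02 with the mean over probe sets. Without probe sets ending in _s_at, _x_at or _a_at, the medians were 0.66 for chromosome structure, 0.14 for anaphase and mitotic exit and 1.02 for cytokinesis, with Top2a at -0.57 and Pttg1 at -0.14; fewer probe sets remain there by construction. For single members, 259 values moved by less than the robust SD of a single probe set and 20 by more. The dimmest members carry only bounds. No paired analysis was possible because each genotype has 1 array.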
